A study of Mus musculus with 2 samples.

Results

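Recombination, excision repair and checkpoint genes were followed in single-cell transcriptomes of mouse liver tumours. They are 35 of the 32285 genes in the deposited matrices, taken as a named list of DNA repair and checkpoint factors, and all 35 were found in both libraries. There was 1 library per genotype. The Crtc2-/- library came from tumours of mice labelled as lacking Crtc2, a coactivator of the transcription factor CREB, and the Crtc2+/+ library from wild-type mice. Mice of both genotypes received an intraperitoneal injection of 25 mg/kg diethylnitrosamine (DEN), a liver carcinogen, at 2 weeks of age, and were kept from week 8 to week 26 on a NASH diet, a feed meant to bring on fatty liver with inflammation, before they were killed. No group without DEN or without the diet was analysed here. The sources used here do not give how many animals or tumours were pooled, the sex of the mice, which part of Crtc2 was deleted or in which tissues. The study's title concerns CRTC2 in transcription and in DNA repair complexes, and the comparison below asks whether transcripts of repair genes differed between the libraries once cycling and resting cells were kept apart.

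Cells repair DNA by several routes. Double-strand breaks are sensed by the kinases Atm and Atr, which act through Chek1 and Chek2 to stop the cell cycle, and can be repaired without loss by homologous recombination, in which Brca1, Bard1, Palb2 and Brca2 help to load the strand exchange protein after the ends have been cut back. The Fanconi anaemia proteins act on crosslinked DNA, base excision repair removes single damaged bases, and nucleotide excision repair removes bulky lesions such as those carcinogens leave. Recombination needs a sister chromatid and many of its genes are transcribed as cells enter S phase, so a tissue with more dividing cells holds more of their transcripts whatever its repair activity.

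The Crtc2-/- library held 9242 barcodes and 78040008 unique molecular identifiers (UMIs, counted transcript molecules), and the Crtc2+/+ library 9707 barcodes and 81487425 UMIs. After filters and removal of called doublets, 8901 Crtc2-/- and 9349 Crtc2+/+ cells remained, with medians of 6560 and 7115 UMIs. The libraries shared 29 barcode sequences. With a single library for each genotype, differences below have no replicate check and were not tested, and an effect of genotype cannot be told apart from one of animal, tumour or library. All intervals are 95% intervals that cover counting error only. Crtc2 itself was counted in both libraries, with 4.78 counts per 1000000 UMIs (CPM) in the Crtc2-/- T gate against 9.55 CPM in the Crtc2+/+ T gate (ratio 0.501, 0.366 to 0.683), and with 5.78 against 6.56 CPM in the macrophage gates (ratio 0.881, 0.711 to 1.09). Reads lie near transcript 3' ends and the extent of the deletion is not known, so these counts do not check the label, and Crtc2-/- below names the library so labelled.

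Cells were taken by gates on raw UMIs: T cells by Cd3d, Cd3e and Cd3g (at least 2 UMIs in sum), macrophages by C1qa, C1qb and C1qc (at least 20), B cells by Cd79a and Cd79b (at least 2), endothelial cells by Ptprb and Stab2 (at least 3) and hepatocytes by Alb, Apoa1 and Ttr (at least 20). A cell with at least 2 UMIs of Mki67 and Top2a, both made in dividing cells, was called cycling, and no member entered any of these rules. The T gate held 188 cycling and 2420 non-cycling Crtc2-/- cells, against 85 and 1841 Crtc2+/+ cells. The macrophage gate held 190 and 1472 Crtc2-/- cells, against 424 and 4516 Crtc2+/+ cells. The B gate held 103 and 1642 Crtc2-/- cells, against 48 and 742 Crtc2+/+ cells. The endothelial gate held 47 and 630 Crtc2-/- cells, against 15 and 218 Crtc2+/+ cells, and the hepatocyte gate 11 and 228 against 8 and 262. Cycling endothelial and hepatocyte cells, under 20 in the Crtc2+/+ library, gave UMI sums only, which left 8 gate and state combinations for ratios. In no gate were 2732 Crtc2-/- and 1540 Crtc2+/+ cells.

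Markers other than those used for gating were present in each gate, but the gates were not equally clean in both libraries. In the cycling B gate, 69 of 103 Crtc2-/- cells (67.0%) and 43 of 48 Crtc2+/+ cells (89.6%) also passed the macrophage gate, and the 6 macrophage markers summed to 7672 and 14419 CPM there, against 520 and 309 CPM for the 4 B cell markers. The cycling B gate is therefore read as a mixture that shares cells with the macrophage gate. In the non-cycling B gate, 24.7% of Crtc2-/- and 25.9% of Crtc2+/+ cells also passed the macrophage gate. There the macrophage markers summed to 6454 and 9036 CPM and the B cell markers to 2038 and 2118 CPM. Non-cycling B cells below are the cells of this mixed gate. In the macrophage gate, 35.3% of non-cycling Crtc2-/- cells and 5.45% of non-cycling Crtc2+/+ cells passed another gate. At least 1 UMI of the Kupffer cell genes Clec4f, Vsig4 or Cd5l was found in 47.4% of Crtc2-/- and 2.75% of Crtc2+/+ macrophage-gate cells, and the 4 Kupffer markers summed to 1892 and 60.9 CPM in non-cycling cells. Plasma cell markers (Jchain and Mzb1) summed to 450 and 1.03 CPM in the cycling T gate and to 6205 and 103 CPM in the cycling B gate. In the non-cycling B gate they summed to 2024 and 174 CPM. In the non-cycling hepatocyte gate the 6 hepatocyte markers summed to 25684 and 11874 CPM and the 3 bile duct markers Epcam, Krt19 and Sox9 to 244 and 688 CPM. None of these markers was at 0 in either library, except Jchain in the cycling T gate of the Crtc2+/+ library. Where such markers move with a result, their part in it was not tested unless a narrower gate is given.

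More cells of the Crtc2-/- T gate were cycling. The share was 7.21% (6.25 to 8.27) in the Crtc2-/- library against 4.41% (3.54 to 5.43) in the Crtc2+/+ library, and 9.82% against 6.20% when each cell was thinned to 2000 UMIs and needed 1 UMI of either gene. In the macrophage gate the share was 11.4% (9.94 to 13.1) against 8.58% (7.82 to 9.40), but the Crtc2-/- cells were deeper, with medians of 11192 and 8922 UMIs, and after thinning the shares were 8.61% and 7.97% with overlapping intervals. B-gate shares were 5.90% and 6.08%, endothelial shares 6.94% and 6.44%, and hepatocyte shares 4.60% and 2.96%, all with overlapping intervals. The B-gate log2 ratio of shares, -0.04, was 1.97 in cells that passed no other gate, from 27 Crtc2-/- and 3 Crtc2+/+ cycling cells. As a background, cells marked by at least 20 UMIs of S100a8 and S100a9 (genes of neutrophils, which do not divide) and in none of the gates had a share of 2.34% of 299 Crtc2-/- cells and 0 of 71 Crtc2+/+ cells, where 3 counts, the limit taken for a count of 0, would be 4.23% and the exact upper bound is 5.06%.

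**Figure D1:**
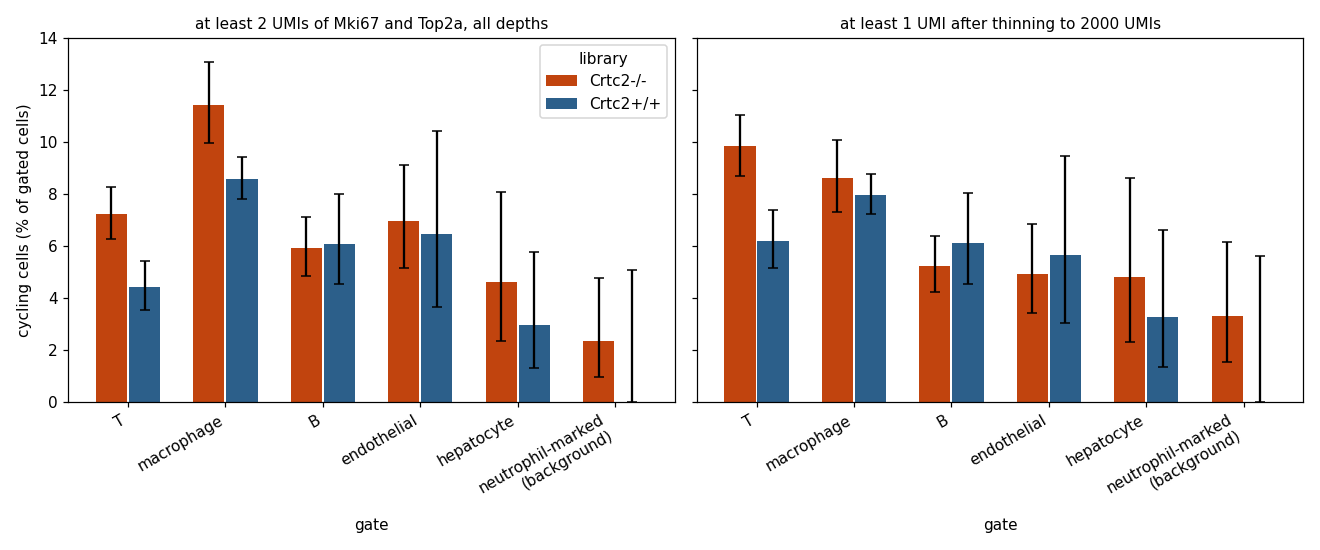
Share of cells in each gate called cycling, in percent of gated cells, for the Crtc2-/- library (left bar of each pair) and the Crtc2+/+ library (right bar), with exact binomial 95% intervals that cover counting error only. Left, at least 2 UMIs of Mki67 and Top2a at each cell's own depth; right, at least 1 UMI after thinning to 2000 UMIs. The T gate keeps its gap after thinning, 9.82% against 6.20%, and the macrophage gate does not, 8.61% against 7.97%.

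In both libraries, cycling cells held more transcripts of the recombination, Fanconi anaemia and replication-linked members than non-cycling cells of the same gate, while none of the 4 members of nucleotide excision repair, nor Atm or Atr, was past 2-fold with 10 CPM added in the T, macrophage or B gate. Ratios are log2 of cycling over non-cycling CPM after adding 10 CPM to each, so a change in a low gene is understated, and a member is called past 2-fold when this value is at least 1 in size. In the T gate, 11 of 35 members were 2-fold higher in cycling Crtc2-/- cells, where 3.02% of all 12962 measured genes were, and 15 of 35 in cycling Crtc2+/+ cells, where 4.76% were. In the macrophage gate, 12 (background 2.82%) and 13 (background 3.05%) of 35 members were 2-fold higher in the Crtc2-/- and Crtc2+/+ libraries. In the B gate it was 11 of 35 (background 3.12%) and 13 of 34 (background 4.4%). No member was 2-fold lower in any of these 6 values, against backgrounds in Crtc2-/- and Crtc2+/+ cells of 0.91% and 0.951% (T), 0.155% and 0.0362% (macrophage), and 2.7% and 4.81% (B). A gene counted as measured with at least 20 UMIs over the 2 sums compared, and each percentage is of all genes measured that way.

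**Figure D2:**
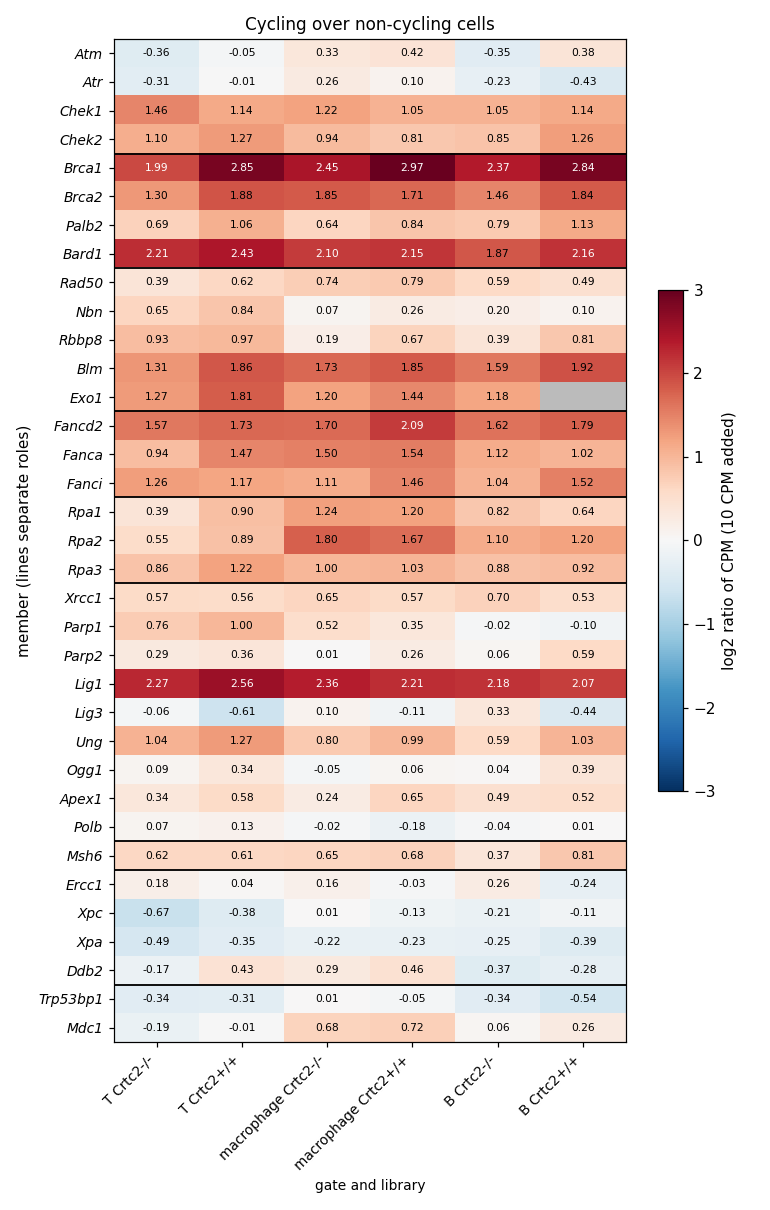
Log2 ratio of CPM in cycling over non-cycling cells (10 CPM added to each) for each of the 35 members (rows, by role) in the T, macrophage and B gates, with the Crtc2-/- library left of the Crtc2+/+ library in each gate. Red is higher in cycling cells, blue lower, and grey is under 20 UMIs. Brca1 spans 1.99 to 2.97 over the 6 columns, while Xpa is below 0 in every column.

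The homologous recombination genes were among those that differed most between the states. Brca1 (chr11:101488764-101551955, minus strand, mm10 with GENCODE M21), the breast cancer protein that starts recombination together with Bard1, had 49.4 CPM in cycling against 4.97 CPM in non-cycling Crtc2-/- T cells, and 83.4 against 2.98 CPM in Crtc2+/+ T cells. In macrophages Brca1 had 55.9 against 2.06 CPM in the Crtc2-/- library and 92.2 against 3.03 CPM in the Crtc2+/+ library. Bard1, the partner that forms a ubiquitin ligase with Brca1, had 59.4 against 4.97 CPM in Crtc2-/- T cells and 75.2 against 5.86 CPM in Crtc2+/+ T cells. Brca2, which loads the strand exchange protein, had 27.0 against 4.97 CPM and 41.2 against 3.94 CPM in the same 2 libraries. Palb2, the bridge between Brca1 and Brca2, had lower log2 ratios, between 0.64 and 1.13 over the 6 values.

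Members with a role in replication or in stalled forks behaved in the same way. Lig1, the ligase that joins Okazaki fragments and also seals base excision gaps, had 111 against 15.1 CPM in Crtc2-/- T cells and 149 against 16.9 CPM in Crtc2+/+ T cells, and its log2 ratios ran from 2.07 to 2.56. Fancd2, the ubiquitinated core of the crosslink response, had 22.4 against 0.904 CPM and 27.8 against 1.38 CPM in T cells, with log2 ratios from 1.57 to 2.09. Its partner Fanci (1.04 to 1.52), the helicase Blm (1.31 to 1.92) and Chek1, the effector kinase of Atr (1.05 to 1.46), were also past 2-fold in all 6 values, which makes 8 members with Brca1, Brca2, Bard1, Lig1 and Fancd2. A further 9 members passed in 1 to 5 values. The nuclease Exo1 passed in all 5 values in which it was measured, Fanca in 5 of 6, and Chek2, Palb2, the single-strand binding subunits Rpa1, Rpa2 and Rpa3, the uracil glycosylase Ung and Parp1 in fewer; Rpa2 reached 1.80 and 1.67 in Crtc2-/- and Crtc2+/+ macrophages but 0.55 and 0.89 in T cells.

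The other 18 members passed in none. They include the apical kinases Atm (-0.36 to 0.42) and Atr (-0.43 to 0.26), the break mediators Trp53bp1 and Mdc1, the nuclease complex subunits Rad50 and Nbn and the resection factor Rbbp8 (0.19 to 0.97). From base excision they include Xrcc1, Parp2, Lig3, Ogg1, Apex1 and Polb, from mismatch repair Msh6 (0.37 to 0.81), and from nucleotide excision Ercc1, Xpc, Xpa and Ddb2. Xpa, which checks the damaged strand, was lower in cycling cells in each of the 6 values, with 34.0 against 52.0 CPM in Crtc2-/- T cells and 32.9 against 44.6 CPM in Crtc2+/+ T cells. Xpc, the sensor of bulky lesions, had 9.55 against 21.2 CPM in Crtc2-/- T cells and 13.4 against 20.3 CPM in Crtc2+/+ T cells. Lig3, the mitochondrial and single-strand break ligase, had 8.72 against 9.49 CPM in Crtc2-/- T cells, and 3.09 against 10.0 CPM in Crtc2+/+ T cells, where the cycling value rests on 3 UMIs.

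Set beside other lists, the member median in the T gate (0.62 in the Crtc2-/- and 0.89 in the Crtc2+/+ library) lay below those of 26 DNA replication genes (1.88 and 2.17) and 22 mitosis genes (3.46 and 3.70) and above that of 50 further repair genes (0.18 and 0.22), with all genes at -0.04 and -0.01. Of those further repair genes, 10 of 49 measured in the Crtc2-/- and 11 of 47 in the Crtc2+/+ library were 2-fold higher in cycling T cells. In the macrophage gate the member medians were 0.65 and 0.72, and the B-gate medians 0.59 and 0.62. Thinning every cell to 2000 UMIs, which also calls a cell cycling from 1 UMI, lowered the T-gate medians to 0.13 and 0.36.

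The promoters of 3 of the 8 members that were higher in all 6 values are shown because they hold an E2F motif, the kind of site bound by the factors that switch on S phase genes. They are RefSeq windows on GRCm38.p6 from 250 bases before to 50 bases after a start, written on the gene's strand, with the motif in capitals. The motif was read as TTTCCCGC, TTTCGCGC, TTTGCCGC or TTTGGCGC on either strand.
Brca2 (chr5:150522371-150522670, plus strand): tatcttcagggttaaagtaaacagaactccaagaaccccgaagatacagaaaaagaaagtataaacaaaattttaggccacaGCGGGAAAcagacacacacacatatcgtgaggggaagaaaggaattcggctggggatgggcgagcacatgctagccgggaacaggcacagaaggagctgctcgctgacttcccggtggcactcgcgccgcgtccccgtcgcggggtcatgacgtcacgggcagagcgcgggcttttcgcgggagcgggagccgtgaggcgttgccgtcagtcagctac
Bard1 (chr1:71102923-71103222, minus strand): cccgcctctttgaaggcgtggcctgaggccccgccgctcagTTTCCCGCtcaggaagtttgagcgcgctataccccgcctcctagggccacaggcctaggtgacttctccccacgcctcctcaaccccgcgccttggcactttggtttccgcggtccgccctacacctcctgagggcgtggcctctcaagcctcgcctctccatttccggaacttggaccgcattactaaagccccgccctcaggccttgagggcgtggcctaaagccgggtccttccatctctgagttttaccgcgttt
Lig1 (chr7:13278576-13278875, plus strand, 1 of 3 starts): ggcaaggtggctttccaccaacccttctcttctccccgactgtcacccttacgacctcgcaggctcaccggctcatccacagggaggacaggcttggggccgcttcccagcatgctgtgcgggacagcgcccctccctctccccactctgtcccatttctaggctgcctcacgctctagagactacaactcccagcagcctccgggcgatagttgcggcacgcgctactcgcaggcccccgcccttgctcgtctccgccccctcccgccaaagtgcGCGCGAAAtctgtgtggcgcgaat

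Promoters were found for 27 members, and 6 of these 27 (22.2%) held an E2F motif in at least 1 promoter, against 2.26% of all 32851 promoters in the table and 2.61% of its 27025 genes. The 6 were Chek2, Brca2, Bard1, Lig1, Msh6 and Mdc1. By their behaviour in cycling cells, the motif was in 3 of 7 members with a promoter that were higher in all 6 values, in 1 of 8 that were higher in some and in 2 of 12 that were higher in none. The CHR motif TTTGAA, common in promoters of mitosis genes, was in 1 of the 27, Bard1, against 17.9% of all promoters. These matches describe letters in a window, and whether a factor binds there was not measured.

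Between the libraries, cycling cells of the Crtc2-/- library had somewhat lower levels of most members, and none was past 2-fold with 10 CPM added. Mki67 and Top2a, which set the cycling call, were also lower in these Crtc2-/- cells. They summed to 923 against 1328 CPM in T cells, 822 against 1006 in macrophages and 836 against 1048 in the B gate. Cycling T cells were deeper in the Crtc2-/- library, with medians of 10605.5 and 8829 UMIs, while cycling macrophages and B-gate cells were shallower. With 1 CPM added Lig3, counted on 3 UMIs in the Crtc2+/+ library, reached 1.25 in T cells and 1.86 in the B gate, where it was 1.03 over a total without mitochondrial, ribosomal protein and most abundant genes. In cycling T cells 0 of 35 members were 2-fold higher and 0 were 2-fold lower, where 2.57% and 1.51% of 9889 measured genes were. In cycling macrophages the counts were also 0 and 0 of 35 (background 3.89% and 2.21%), and in the cycling B gate 0 and 0 of 35 (background 3.97% and 3.24%). Log2 ratios here are Crtc2-/- over Crtc2+/+ with 10 CPM added to each. Their median over the members was -0.27 in T cells, with 28 of 35 below 0, against a median of -0.01 over all genes, of which 5072 of 9889 were below 0. It was -0.08 in T cells thinned to 2000 UMIs. It was -0.12 in macrophages (25 of 35 below 0, all genes 0.02), where thinning turned it to 0.15, and -0.21 in the B gate (26 of 35, all genes -0.01). Single members ran from -0.70 to 0.52 in T cells, from -0.63 to 0.30 in macrophages and from -0.70 to 0.86 in the B gate. Summed over the 35 members, cycling T cells held 1346 CPM in the Crtc2-/- and 1678 CPM in the Crtc2+/+ library, and cycling macrophages 1293 and 1503 CPM.

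Other cell cycle genes were also lower in the same cells. The DNA replication list had medians of -0.29 in T cells (23 of 26 below 0) and -0.21 in macrophages (21 of 26), and the mitosis list -0.20 (19 of 22) and -0.15 (16 of 22). In T cells and macrophages the member medians lay no lower than those of the replication list, and in the B gate, at -0.21 against -0.14, they did. The 50 further repair genes had a median of -0.13 in T cells, with 30 of 45 measured below 0. Whether the members were lower because the cells called cycling differed was not tested. In cycling T cells the 12 dissociation and stress genes had a median of 0.56, and their part was not tested either.

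Among single members in cycling T cells, the lowest ratios belonged to Atm, Brca1 and Fanca. Atm, the kinase that signals double-strand breaks, had 39.8 CPM in the Crtc2-/- library against 71.0 CPM in the Crtc2+/+ library (ratio 0.561, 0.407 to 0.776). Brca1 had 49.4 against 83.4 CPM (0.592, 0.443 to 0.795). In thinned cells the log2 ratio of Atm, -0.70, became -0.20 and that of Brca1, -0.65, became -0.03. Fanca, of the Fanconi core complex, had 16.2 against 29.9 CPM (0.542, 0.327 to 0.909). The highest were Lig3, Rbbp8 and Chek1. Rbbp8, the factor that starts end resection, had 126 against 90.6 CPM (1.39, 1.09 to 1.78), but its log2 ratio of 0.43 became -0.08 in thinned cells. Lig3 (21 and 3 UMIs) and Chek1 (50 and 14 UMIs) had intervals that included 1. Lig1 and Rpa1, which with Rbbp8 had the most UMIs, had 111 against 149 CPM and 90.1 against 116 CPM.

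The cycling macrophage gate was also unequally mixed, as 97 of 190 Crtc2-/- and 51 of 424 Crtc2+/+ cells passed another gate. The 3 neutrophil markers summed to 1003 and 1.72 CPM there, and their part in the ratios below was not tested. In cycling macrophages Brca1 was again among the lowest, with 55.9 against 92.2 CPM (0.606, 0.515 to 0.711). Its log2 ratio ran from -0.72 to -0.35 over 13 alternatives, which include cells of 1 gate only. Parp1, the enzyme that marks strand breaks with poly(ADP-ribose), had 60.5 against 96.7 CPM (0.625, 0.534 to 0.730), and Ung 11.1 against 19.2 CPM (0.581, 0.397 to 0.832). In macrophage-gate cells with no Kupffer UMI, 92 and 412 cycling cells, these ratios were 0.762 for Brca1, 0.750 for Parp1 and 0.547 for Ung. In thinned cells the log2 ratio of Brca1, -0.63, became -0.37. The highest were Nbn, the subunit that recruits Atm to breaks, with 23.4 against 17.0 CPM (1.37, 1.03 to 1.82), Lig3 with 10.3 against 6.47 CPM (1.59, 1.0 to 2.49) and Xpc with 17.4 against 13.7 CPM (1.27, 0.908 to 1.75). Xpc turned to a log2 ratio of -0.18 in cells with no Kupffer UMI. Lig1 (93.0 against 126 CPM), Rbbp8 (110 against 95.7 CPM) and Rad50 (80.7 against 97.1 CPM) had the most UMIs.

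In the cycling B gate, most of whose cells were also macrophage-gated, Atm had 27.6 against 51.1 CPM (0.540, 0.363 to 0.804), Chek2 33.4 against 58.1 CPM and Ung 13.5 against 24.0 CPM. Lig3 rested on 28 and 3 UMIs (4.51, 1.39 to 23.2), Nbn on 40 and 11 and Ercc1 on 33 and 9. Rbbp8, Lig1 and Rad50, with the most UMIs, had 94.3 against 105, 82.7 against 105 and 81.8 against 99.1 CPM. With cells of 1 gate only, 27 Crtc2-/- and 3 Crtc2+/+ cells were left and no ratio could be given.

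**Figure D3:**
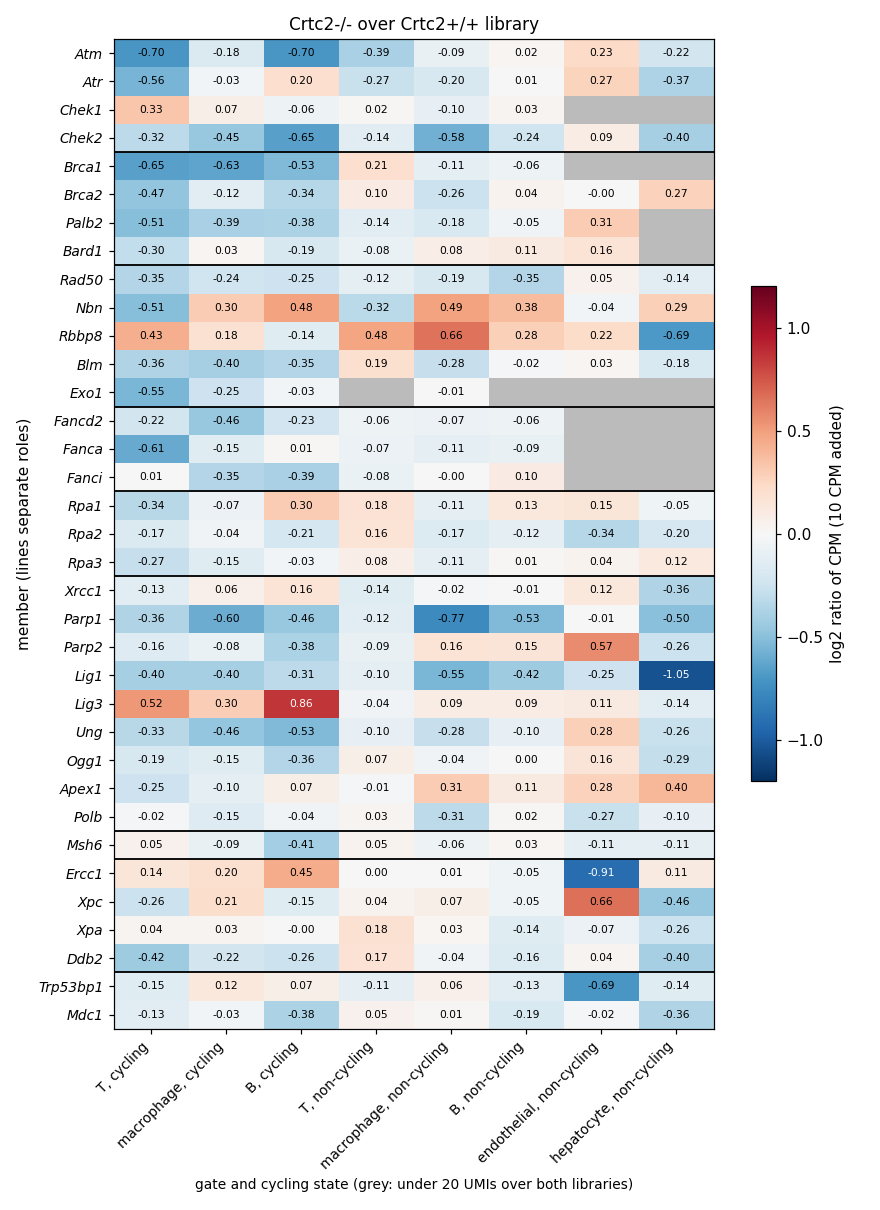
Log2 ratio of CPM in the Crtc2-/- over the Crtc2+/+ library (10 CPM added to each) for the 35 members (rows, by role) in the 8 gate and state combinations with at least 20 cells in each library (columns). Red is higher and blue lower in the Crtc2-/- library, and grey is under 20 UMIs over both. Only Lig1 in non-cycling hepatocytes, at -1.05, passes 2-fold, and 28 of 35 members are below 0 in cycling T cells.

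In non-cycling cells 1 member in 1 gate passed 2-fold with 10 CPM added. In T cells 0 of 34 measured members were 2-fold higher and 0 lower (background 0.87% and 0.398%), in macrophages 0 and 0 of 35 (2.98% and 1.79%), in B cells 0 and 0 of 34 (1.7% and 0.879%) and in endothelial cells 0 and 0 of 29 (2.48% and 2.68%). In hepatocytes 0 of 27 were higher and 1 was lower (4.21% and 4.11%). These counts are near or below the shares of all genes. With 10 CPM added, a member under 10 CPM in the Crtc2+/+ library could not be called 2-fold lower. Likewise, one under 10 CPM in the Crtc2-/- library could not be called 2-fold higher. Ung in macrophages, at 2.17 against 4.73 CPM (ratio 0.459), was such a member. For members at these levels the counts of 0 therefore say little. Member medians were -0.03 in T cells, -0.07 in macrophages, -0.02 in B cells, 0.05 in endothelial cells and -0.22 in hepatocytes, against 0.03, 0.02, 0.01, -0.03 and -0.05 over all genes. The sign turned in the Stab2 cells of the endothelial gate, at -0.03, and in a narrower hepatocyte gate, at 0.02. This narrower gate takes cells with no UMI of C1qa, C1qb, C1qc, Cd3d, Cd3e, Cd79a or Cd79b. It sets no limit on Cd3g or on the endothelial genes Ptprb and Stab2. In the B gate the median turned to 0.01 both with gate limits doubled and in the mean over cells. Not measured were Exo1 in T and B cells, Chek1, Brca1, Exo1, Fancd2, Fanca and Fanci in endothelial cells, and in hepatocytes these 6 with Palb2 and Bard1. Single members ran from -0.39 to 0.48 in T cells, from -0.77 to 0.66 in macrophages, from -0.53 to 0.38 in B cells, from -0.91 to 0.66 in endothelial cells and from -1.05 to 0.40 in hepatocytes. The 12 dissociation and stress genes had medians of 0.41 in T cells and 0.50 in both endothelial cells and hepatocytes, and their part in these ratios was not tested. Summed over members, non-cycling T cells held 786 CPM in the Crtc2-/- and 784 CPM in the Crtc2+/+ library.

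Of the checkpoint kinases, Atm and Atr had lower levels in T cells of the Crtc2-/- library, and Atr and Chek2 in macrophages. Non-cycling T cells had 54.0 against 73.9 CPM of Atm (0.731, 0.658 to 0.813) and 37.3 against 46.8 CPM of Atr (0.796, 0.699 to 0.907), and in the T-gate cells with a UMI of Cd8a or Cd8b1 the ratios were 0.692 and 0.834. Atm was nearly level in B cells, with 37.8 against 37.1 CPM, and had 25.8 against 28.1 CPM in macrophages (0.918, 0.823 to 1.02). Atr had 22.1 against 26.8 CPM in macrophages (0.826, 0.735 to 0.927), or 0.869 (0.742 to 1.01) in those with no Kupffer UMI, and 31.9 against 31.8 CPM in B cells. The T gates differed in the 3 monocyte-list genes, which summed to 403 and 1094 CPM, mostly Ly6c2, also a gene of activated T cells (289 and 977 CPM); the part of this in the Atm ratio was not tested. Chek2, the effector kinase of Atm, had 14 against 25.8 CPM in macrophages (0.541, 0.470 to 0.621), and 0.536 in those with no Kupffer UMI. Chek1 was close to 0 outside cycling cells, at 1.21 and 1.06 CPM in T cells.

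The break-end genes Rbbp8 and Nbn lay on opposite sides of 1 in different gates, a contrast that was not tested. Rbbp8 was higher in the Crtc2-/- library in T cells, with 61.3 against 41.2 CPM (1.49, 1.32 to 1.68), and in macrophages, with 94.8 against 56.5 CPM (1.68, 1.58 to 1.79). In macrophages with no Kupffer UMI the Rbbp8 ratio was 1.28 (1.17 to 1.40). In B cells it was 69.8 against 55.5 CPM (1.26, 1.09 to 1.46), but 0.874 (0.701 to 1.10) in cells of that gate alone. Endothelial cells had 87.3 against 73.6 CPM, and a ratio of 0.896 in cells of that gate alone. In hepatocytes it was lower, with 33.2 against 59.8 CPM (0.556, 0.425 to 0.724), but in the narrower hepatocyte gate, 98 and 70 cells, the ratio was 1.07 (0.537 to 2.28). Nbn was higher in macrophages, with 21.7 against 12.7 CPM (1.72, 1.5 to 2.0), and 1.90 in those with no Kupffer UMI, and lower in T cells, with 6.93 against 11.2 CPM (0.620, 0.463 to 0.828). In B cells Nbn had 15.6 against 9.67 CPM (1.62, 1.15 to 2.32), or 1.27 (0.724 to 2.36) in cells of that gate alone, and in hepatocytes 18.8 against 13.6 CPM with an interval that included 1. Rad50, the ATPase of the same nuclease complex, was lower in B cells, with 50.9 against 67.7 CPM (0.752, 0.653 to 0.868), and had 60.6 against 66.6 CPM in T cells. In macrophages, where Nbn was higher, Rad50 was lower, with 44.4 against 52.1 CPM (0.852, 0.784 to 0.924).

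**Figure D4:**
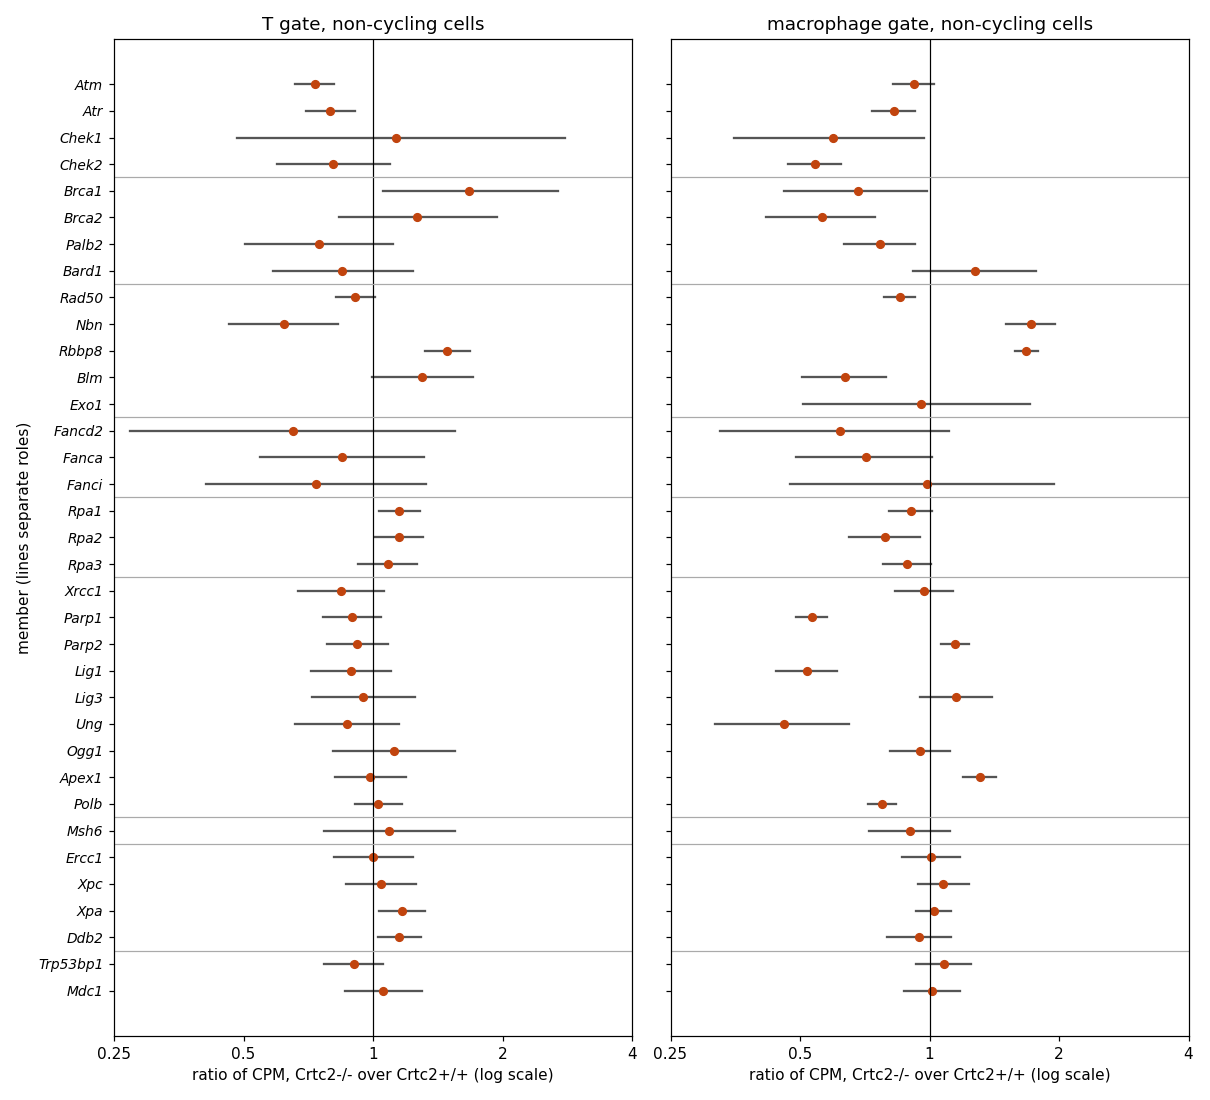
Ratio of CPM in the Crtc2-/- over the Crtc2+/+ library (log axis) for each measured member in non-cycling cells of the T gate (left) and the macrophage gate (right), points with 95% intervals for counting error only. Parp1, Lig1 and Chek2 lie at 0.518 to 0.541 in macrophages and nearer 1 in T cells, and Nbn lies on opposite sides of 1.

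Recombination and Fanconi genes had low levels in non-cycling cells. Brca1 had 4.97 against 2.98 CPM in T cells (1.67, 1.06 to 2.70). In macrophages it had 2.06 against 3.03 CPM (0.681, 0.459 to 0.989), and the ratio was 0.966 with no Kupffer UMI. Non-cycling T cells still held transcripts of the mitosis list, which summed to 113 CPM in the Crtc2-/- and 64.8 CPM in the Crtc2+/+ library. In non-cycling macrophages these sums were 93.3 and 86.4 CPM. The DNA replication list summed to 637 and 565 CPM in the T cells. In the macrophages it was lower in the Crtc2-/- library, at 367 and 433 CPM. The part of this remaining cycling signal in the Brca1 ratios, and in those of Brca2, Palb2 and Blm below, was not tested. Brca2 had 3.34 against 5.96 CPM in macrophages (0.561, 0.416 to 0.746), and 0.601 (0.397 to 0.880) in those with no Kupffer UMI. In the same macrophages Palb2 had 8.19 against 10.7 CPM (0.768, 0.633 to 0.927), and 0.548 (0.399 to 0.737) with no Kupffer UMI. Blm had 5.79 against 9.13 CPM (0.635, 0.506 to 0.790) there, and 0.869 (0.658 to 1.13) with no Kupffer UMI. Of these 3, the interval of Blm included 1 without the Kupffer-marked cells. In hepatocytes Brca2 rested on 20 and 9 UMIs. Blm had 11.9 against 9.16 CPM in T cells, a log2 ratio of 0.19 that became -0.12 in thinned cells, and Palb2 7.13 against 3.85 CPM in endothelial cells from 57 and 8 UMIs. Fancd2, Fanca and Fanci each had under 6 CPM in every non-cycling combination, and Exo1 under 1 CPM.

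In base excision and strand break repair, Parp1 and Lig1 were lower in the Crtc2-/- library in macrophages, B cells and hepatocytes and closer to level in T cells. Parp1 (chr1:180568924-180601254, plus strand) had 39.2 against 73.7 CPM in macrophages (0.532, 0.490 to 0.578), and 0.584 (0.522 to 0.652) in those with no Kupffer UMI. It had 68.5 against 103 CPM in B cells (0.663, 0.590 to 0.745), 28.9 against 45 CPM in hepatocytes (0.642, 0.478 to 0.862) and 28.6 against 32.0 CPM in T cells (0.893, 0.766 to 1.04). In the narrower hepatocyte gate the Parp1 ratio was 0.975 (0.384 to 2.78). Lig1 had 10.1 against 19.5 CPM in macrophages (0.518, 0.439 to 0.609) and 10.5 against 17.5 CPM in B cells (0.602, 0.449 to 0.811), where cells of the B gate alone gave 0.819 (0.490 to 1.41). In macrophages its log2 ratio of -0.55 ran from -0.88 to -0.40 over 13 alternatives, which include cells with no Kupffer UMI. The DNA replication list summed to 367 against 433 CPM in these macrophages, and the part of this in the Lig1 ratio was not tested. The largest difference of Lig1 was in hepatocytes, 11.1 against 33.5 CPM (0.331, 0.213 to 0.502), and it alone was past 2-fold with 10 CPM added, at -1.05. That call was lost, at -0.72, in the mean over cells and, at -0.99 and -0.98, in cells of 1 gate only and in the narrower hepatocyte gate. The log2 ratio fell just short of 2-fold when centred on the median of all genes. The mitosis genes were also lower in the whole non-cycling hepatocyte gate, summing to 155 and 274 CPM. In the narrower hepatocyte gate the plain Lig1 ratio was 0.365 (0.139 to 0.946). Mitochondrial shares were 1.79% and 4.98% in the whole gate, and their part in this result was not tested.

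The remaining excision genes differed in both directions. Apex1, the endonuclease that cuts at abasic sites, was higher in macrophages, with 46.1 against 35.3 CPM (1.31, 1.2 to 1.42), and in hepatocytes, with 63.8 against 45.8 CPM (1.39, 1.09 to 1.78). In hepatocytes its log2 ratio of 0.40 became -0.29 in thinned cells, and the ratio was 1.01 in the narrower hepatocyte gate. Polb, the gap-filling polymerase, had 48.6 against 62.7 CPM in macrophages (0.776, 0.718 to 0.838) and 45.6 against 44.4 CPM in T cells. Parp2, the relative of Parp1, had 33.4 against 19.2 CPM in endothelial cells (1.73, 1.24 to 2.48), or 1.19 (0.785 to 1.86) in cells of that gate alone, and 49.8 against 43.8 CPM in B cells, where in cells of 1 gate only the log2 ratio was -0.20. In macrophages Parp2 had 58.5 against 51.1 CPM (1.14, 1.06 to 1.23). Ung, which removes uracil from DNA, had 2.17 against 4.73 CPM in macrophages (0.459, 0.317 to 0.65), and 0.453 (0.263 to 0.735) in those with no Kupffer UMI. Xrcc1, Lig3, Ogg1 and the mismatch gene Msh6 had intervals that included 1 in each of the 5 non-cycling gates. The single-strand binding genes Rpa1 (66.2 against 57.5 CPM) and Rpa2 (47.2 against 41.0 CPM) had ratios of 1.15 in T cells, Rpa2 had 8.41 against 10.7 CPM in macrophages (0.787, 0.65 to 0.948), and Rpa2 had 7.0 against 11.5 CPM in endothelial cells.

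Nucleotide excision genes and break mediators differed mainly in the endothelial gate. That gate was unequally mixed, as 18.9% of its non-cycling Crtc2-/- and 6.88% of its Crtc2+/+ cells also passed the macrophage gate. The 4 Kupffer markers summed to 1865 and 434 CPM in the endothelial gate. Xpc had 78.8 against 46.2 CPM there (1.71, 1.37 to 2.14), and 2.16 in cells of that gate alone, but 1.19 (0.908 to 1.60) in the 587 and 92 cells with a UMI of Stab2, a scavenger receptor of liver sinusoids. Ercc1, of the nuclease that cuts 5' of a lesion, had 18.9 against 44.3 CPM (0.426, 0.327 to 0.559), a log2 ratio of -0.91 that was -1.19 with 1 CPM added and -0.47 in thinned cells, and 0.757 (0.466 to 1.30) in the Stab2 cells. Trp53bp1, which shields broken ends from resection, had 24.1 against 45.2 CPM (0.533, 0.415 to 0.690), and 0.617 (0.420 to 0.936) in the Stab2 cells. Stab2 was found in 587 of 630 Crtc2-/- and 92 of 218 Crtc2+/+ cells of the gate. Cells that also passed the macrophage gate were not left out of these Stab2 cells. In hepatocytes Xpc had 36.3 against 53.5 CPM (0.678, 0.520 to 0.884), and Xpa 48.7 against 60.2 CPM. In T cells Xpa and Ddb2, the sensor of ultraviolet lesions, had ratios of 1.17 (52.0 against 44.6 CPM) and 1.15 (60.6 against 52.6 CPM). Mdc1, the scaffold at damaged chromatin, had 17.5 against 16.6 CPM in T cells and 14.1 against 13.9 CPM in macrophages.

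Over all cells of the T gate, cycling and not, the members summed to 872 CPM in the Crtc2-/- and 868 CPM in the Crtc2+/+ library, with a median log2 ratio of 0.02. With cycling cells given the same share of UMIs in both libraries, the sums were 859 and 900 CPM and the median -0.07. The DNA replication list moved further, with medians of 0.10 as is and -0.10 at equal shares, and the mitosis list from the same cells had 0.32 and -0.08. The 50 further repair genes had 0.02 and -0.04. In the macrophage gate the member median was -0.08 as is and -0.09 at equal shares, in the B gate -0.10 and -0.07, in the endothelial gate 0.09 and 0.08, and in the hepatocyte gate -0.24 and -0.25. Equal shares thus turned the sign of the member median in the T gate alone among the 5 gates, by a small amount.

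In the gates with too few cycling cells for ratios, Crtc2-/- endothelial cells held 40 UMIs of Brca1, 77 of Lig1 and 110 of Rbbp8, and Crtc2+/+ endothelial cells 7, 10 and 29. Cycling hepatocyte-gate cells held 12 and 23 UMIs of Lig1 and 5 and 9 of Brca1 in the Crtc2-/- and Crtc2+/+ libraries. These sums come from 47 and 15 endothelial and from 11 and 8 hepatocyte-gate cells and are given without a comparison.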

How the data were processed

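Raw UMI counts were used as the authors deposited them, in a matrix for each library. The file headers name Cell Ranger 7.1.0, and the labels' protocols 10x Genomics 3' chemistry. The submitters' processing notes name the build mm10, Cell Ranger and Seurat. Counts at transcript 3' ends are not scaled by length, so levels were compared between libraries or states and not between genes.

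Barcodes with under 500 UMIs, under 250 genes or over 20% mitochondrial UMIs were left out. Scrublet (scanpy 1.11.5, expected 0.8% doublets per 1000 cells) called and removed 273 Crtc2-/- (2.98%) and 263 Crtc2+/+ (2.74%) barcodes, below the expected 7.34% and 7.69%, so missed doublets remain. UMIs were summed per library, gate and state (Python 3.11.15, numpy 2.4.6, pandas 2.3.3). Log2 ratios had 10 CPM added. Ratios have exact conditional 95% intervals and shares exact Clopper-Pearson intervals (scipy 1.17.1). The ratios without added CPM and their intervals were tried on simulated counts with known changes and counting error only. The gates, the summing of cells and the log2 ratios with 10 CPM added were not tried this way.

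Any member could be named. In each gate and state the 3 highest and 3 lowest log2 ratios among measured members and the 3 members with the highest CPM were given, and for cycling over non-cycling the 5 highest and 3 lowest in T cells. The members and lists were chosen with earlier results of these data known. Alternatives were 1 CPM added, minimums of 50 UMIs or 1 UMI, a stricter cycling call, cells thinned to 2000 UMIs, cells of 1 gate only, doubled gate limits, narrower cells of each gate, totals without mitochondrial, ribosomal and top 50 genes, centring on all genes, per-cell means, called doublets kept, at most 10% mitochondrial UMIs, and equal cycling shares.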

Additional observations from a re-analysis of the deposited data

Results flagged for a closer look

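In non-cycling cells, 5 members had a counting interval above 1 in at least 1 gate and below 1 in another. With 1 library per genotype these contrasts between gates were not tested, and cells that pass several gates enter more than 1 value. The share of all genes that meet the same rule was not counted. Whether 5 members are more than other genes would give is therefore not known. The Crtc2-/- over Crtc2+/+ ratio of Rbbp8, which starts the resection of broken ends, was 1.49 in T cells, 1.68 in macrophages and 1.26 in B cells but 0.556 in hepatocytes. It was 0.874 in cells of the B gate alone and 1.07 in hepatocyte-gate cells with no UMI of C1qa, C1qb, C1qc, Cd3d, Cd3e, Cd79a or Cd79b. Nbn, of the break-sensing nuclease complex, had ratios of 1.72 in macrophages and 1.62 in B cells but 0.620 in T cells, and 1.27 with an interval that included 1 in cells of the B gate alone. Brca1 had 1.67 in T cells and 0.681 in macrophages, or 0.966 in those with no Kupffer UMI, at levels under 5 CPM in both libraries. The mitosis list summed to 113 and 64.8 CPM in the same Crtc2-/- and Crtc2+/+ T cells. In all non-cycling macrophages the mitosis list summed to 93.3 and 86.4 CPM and the DNA replication list to 367 and 433 CPM. The part of these lists in the Brca1 ratios was not tested. Rpa2 had 1.15 in T cells and 0.787 in macrophages. Xpc had 1.71 in endothelial cells, or 1.19 in those with a Stab2 UMI, and 0.678 in hepatocytes.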

How the results depend on the processing

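Of 217 values of medians, shares and whole-gate ratios under the alternatives, 15 fell outside the interval set as their limit. For a median this limit was the counting interval of the single member nearest to it, not of the median. The count of 15 therefore does not measure how well the medians held. The change of the non-cycling hepatocyte median from -0.22 to 0.02, for example, lay inside its limit. Of 585 values for the 48 named member results 577 kept their sign. Thinning to 2000 UMIs gave a member median of 0.15 in cycling macrophages, a change of sign, and cycling over non-cycling medians of 0.13 and 0.36 in Crtc2-/- and Crtc2+/+ T cells, 0.49 in Crtc2+/+ macrophages and 0.24 in the Crtc2+/+ B gate. Adding 1 CPM gave -0.13 for non-cycling macrophages and 0.97 and 1.01 for cycling over non-cycling Crtc2-/- and Crtc2+/+ macrophages. In the Crtc2-/- B gate that median was 0.21 in cells of 1 gate only and 0.30 with gate limits doubled. The log2 ratio of cycling shares in the macrophage gate was 0.16 with the stricter cycling call, 0.11 thinned and 0.15 in cells of 1 gate only, and in the B gate 1.97 in cells of 1 gate only and 1.27 with gate limits doubled, against -0.04 as reported. Ratios of endothelial and hepatocyte shares also changed sign, within counting error, under some of these settings. The cause was not tested. Thinning also lowered counts, so members near 10 CPM limit what can be seen. With 1 library per genotype none could be left out. No paired analysis was possible because each genotype had 1 library.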
